A study of Mus musculus with 34 samples.

Results

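The comparison described here set mice without ATF3 in their sensory neurons against control mice, on the side of a sciatic nerve crush. It used the 17 crushed-side libraries of 34 in the study, 8 from ATF3 cKO mice and 9 from ATF3 wt mice, chosen by their injury and genotype labels alone, and tested 18809 genes. The other 17 libraries came from the uncrushed side of the same mice and were used to ask whether the genotype difference was present without a crush. RNA was sequenced from dorsal root ganglia of lumbar levels 4 to 6, which send axons into the sciatic nerve. The ganglia were taken 3 days after a left-sided crush from mice 8 to 12 weeks old, dissociated, and enriched for neurons on 20% Percoll.

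All 8 cKO mice carried Adv-Cre, a Cre recombinase under the advillin promoter of sensory neurons, and both of their ATF3 alleles were floxed around exon 3 (ATF3-fl_homo). The 9 controls were of 3 kinds, since 4 were Adv-Cre- with ATF3-fl_het, 2 were Adv-Cre- with wt alleles, and 3 were Adv-Cre+ with wt alleles. Sex ran alongside Cre among the controls. All 6 Cre-negative controls were female and all 3 Cre-positive controls were male, while the cKO group held 5 females and 3 males. Effects of Cre itself were therefore shared by both genotypes in males only, where every mouse carried it.

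ATF3 is a transcription factor of the bZIP family that is nearly silent in most intact tissues and is switched on in sensory neurons when their axons are cut or crushed. It binds DNA as a dimer with itself or with partners such as JUN, at AP-1 and CRE sites. Injured sensory neurons turn on a set of regeneration-associated genes, which encode growth-cone proteins, neuropeptides, cytokines and transcription factors, and turn down many genes of their resting identity.

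The gene counts do not check the deletion, because they cover whole genes and removal of 1 exon leaves most of the transcript to be counted. Atf3 (chromosome 1, 191170296 to 191218039, minus strand) reached 179 to 361 CPM (counts scaled to a common library size) in crushed cKO ganglia, with a median of 254, and 169 to 652 in wt, with a median of 335. The ranges overlapped. The log2 fold change was -0.47 ± 0.22 (SE) with an adjusted p of 0.25 in edgeR's quasi-likelihood test, which is the test behind every adjusted p given here unless another is named. On the uncrushed side Atf3 was not silent, at 70.1 to 150 CPM in cKO (median 123) and 75.5 to 184 in wt (median 123). Avil itself separated the Cre labels in all but a pair of crushed libraries. It lay at 432 to 494 CPM in 7 cKO mice and at 487 to 550 in the 3 Cre-positive controls, against 792 to 970 in 5 of the Cre-negative controls. Mouse cKO-131 stood at 88.7 CPM, far below every other mouse, and mouse wt-150, labelled Cre-negative, stood at 517 CPM, within the Cre-positive range. Both mice were kept, and results that depend on them are given with and without them. Without both, 997 genes passed, 631 lower and 366 higher in cKO.

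Crushed libraries held 35732193 to 76681484 counts, with a median of 54913553 in cKO and 61165248 in wt. Ribosomal spacer transcripts took 5.02% to 20.0% of the counts and split the mice into a low set of 6 (3 cKO, 3 wt) and a high set of 11 (5 cKO, 6 wt).

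Of the genes tested, 1112 (5.91%) passed an adjusted p of 0.05. In cKO 788 were lower (4.19% of all tested) and 324 were higher (1.72%). Lower genes also moved further. A change of at least 2-fold was found for 288 of the lower genes (1.53% of all tested) and 39 of the higher ones (0.207%), and 56 genes were at least 8-fold lower. The median log2 fold change was -0.75 among the lower genes and 0.54 among the higher genes, against 0.03 over all genes tested. In 290 of the lower genes every cKO library was below every wt library, and in 32 of the higher genes every cKO library was above every wt library. Over all genes tested such separation occurred in 295 (1.57%) below and 34 (0.181%) above. The counts leaned on single mice. Without wt-172 the test called 612 genes, 427 lower and 185 higher, and the higher genes fell to 203 without cKO-163 and 210 without wt-139. In every one of the 17 fits that left out a mouse, 423 of the lower and 166 of the higher genes were called again.

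**Figure D1:**
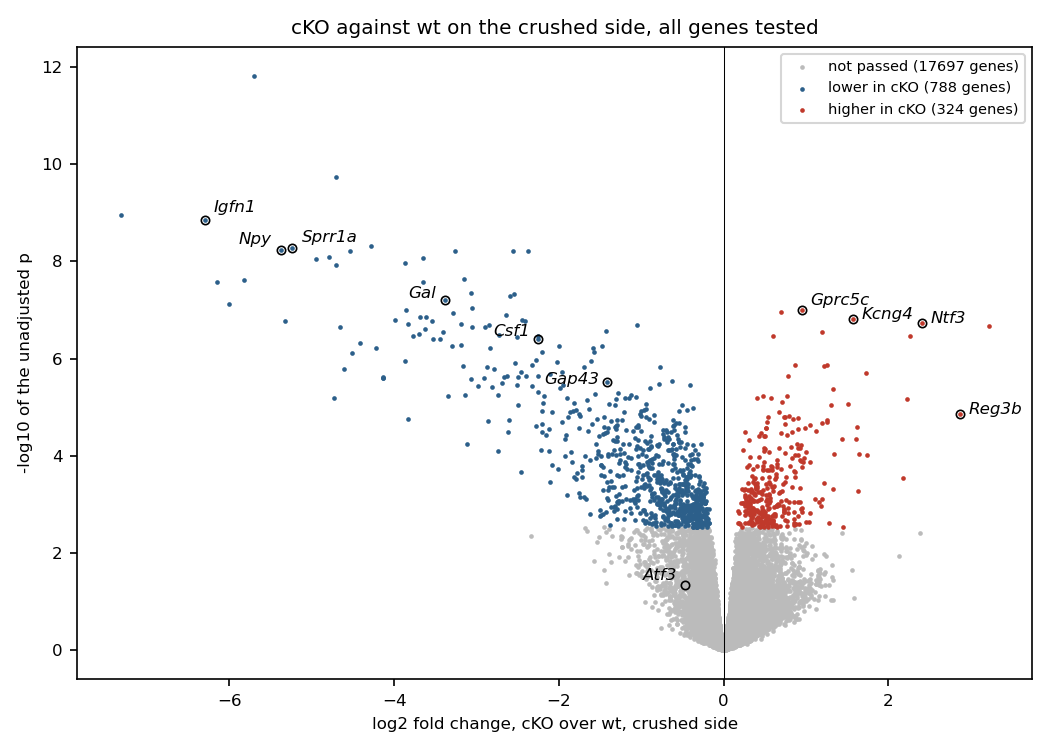
Each point is 1 of the 18809 genes tested on the crushed side, with the log2 fold change of cKO over wt on the x axis and the -log10 of the unadjusted p on the y axis; blue genes passed as lower in cKO, red genes as higher, and grey genes did not pass. The 788 lower genes reach far to the left (Igfn1 at -6.29, Sprr1a at -5.24), while the 324 higher genes mostly lie within 1 log2 unit of 0.

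AP-1 letters lay close to the start of some of the genes that differed most and were absent there in most of them. Promoters of 250 bases upstream of the gene start, from RefSeq on GRCm38.p6, were searched on both strands for the AP-1 letters TGACTCA, the CRE letters TGACGTCA and the C/EBP-ATF letters TGATGCAA. Of the 12 genes with the lowest ratio described next, 10 had a promoter entry, 2 held an AP-1 match and none held the other motifs, while AP-1 matches occur in 4.46%, CRE matches in 1.55% and C/EBP-ATF matches in 0.791% of all 32851 promoters. Among the 12 genes with the highest ratio, 9 had an entry and 1, Mme, held an AP-1 match in 1 of its promoters. The shares are per promoter, while a gene with several promoters counted if any of them held a match. The pair of matched promoters of lower genes is shown because these genes were among the most reduced, with the AP-1 letters (in reverse complement, TGAGTCA) in capitals. The Sprr1a window is chr3:92485882-92486131 on the minus strand, with a pair of matches. The Lipn window is chr19:34067108-34067357 on the plus strand, with a single match. A match of letters is a description of the sequence, not a measured binding site.
Sprr1a promoter: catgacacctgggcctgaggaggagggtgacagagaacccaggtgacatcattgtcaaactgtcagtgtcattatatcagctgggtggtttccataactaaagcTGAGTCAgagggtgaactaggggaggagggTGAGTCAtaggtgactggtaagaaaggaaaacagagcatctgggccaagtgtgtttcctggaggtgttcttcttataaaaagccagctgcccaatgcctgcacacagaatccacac
Lipn promoter: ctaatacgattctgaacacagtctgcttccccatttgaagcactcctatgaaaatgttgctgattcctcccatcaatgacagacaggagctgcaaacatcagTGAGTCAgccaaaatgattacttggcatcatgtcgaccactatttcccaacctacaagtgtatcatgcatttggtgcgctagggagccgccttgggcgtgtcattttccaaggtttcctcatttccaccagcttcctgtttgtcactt

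The 12 genes with the lowest ratio, among called genes with a mean of at least 5 CPM in wt, were Igfn1, Npy, Sprr1a, Cckbr, Fgf3, Lipn, Tmem88b, Acvr1c, Star, Slc6a4, Gal and Car3. They were 9.78-fold to 78.4-fold lower in cKO, and in none of them did the groups overlap. Each was called in all 17 fits that left out a mouse.

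Sprr1a, a small proline-rich protein that promotes neurite outgrowth, reached 73.1 to 515 CPM in wt (median 142) and 0.677 to 8.44 in cKO (median 5.18). The most reduced cKO mouse was cKO-131 and the highest wt mouse was wt-172. Its log2 fold change was -5.24 ± 0.49 (adjusted p 1.06e-05). Npy, the neuropeptide that large sensory neurons start to make after axon injury, lay between 21.4 and 137 CPM in wt (median 46.2) and between 0.0188 and 2.94 in cKO (median 1.25), a log2 change of -5.37 ± 0.51 (adjusted p 1.06e-05). Here too the lowest level was in cKO-131. Gal encodes galanin, another peptide induced by axotomy. Its levels were 94.5 to 575 CPM in wt (median 143) and a narrow 14.1 to 22.5 in cKO (median 21.2), with a log2 change of -3.39 ± 0.38 (adjusted p 4.91e-05). Cckbr, the receptor for the peptide cholecystokinin, ranged from 8.61 to 55.0 CPM in wt (median 16.1) and from 0.364 to 1.24 in cKO (median 0.944), a log2 change of -4.79 ± 0.46 (adjusted p 1.22e-05). In all 4 genes the lowest wt mouse stood well above the highest cKO mouse, by 4.20 times for Gal and 8.66 times for Sprr1a, the narrowest and widest of these gaps.

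Several of the most reduced genes are better known from tissues other than nerve. Igfn1, a protein with immunoglobulin and fibronectin domains described in skeletal muscle, lay at 2.31 to 15.0 CPM in wt (median 3.18) and 0.0185 to 0.101 in cKO (median 0.0759), for a log2 change of -6.29 ± 0.54 (adjusted p 6.50e-06). Star, which carries cholesterol into mitochondria for steroid synthesis, had 7.36 to 38.6 CPM in wt (median 13.0) and 0.790 to 1.81 in cKO (median 1.40), a log2 change of -3.65 ± 0.35 (adjusted p 1.22e-05). Slc6a4, the serotonin transporter, had 7.91 to 50.5 CPM in wt (median 14.2) and 0.942 to 2.68 in cKO (median 1.56), a log2 change of -3.61 ± 0.42 (adjusted p 7.79e-05). Each of these was low in every cKO mouse and detected in every wt mouse. Fgf3, a fibroblast growth factor of early development, fell from a wt median of 8.22 CPM (3.49 to 24.9) to a cKO median of 0.438 (0.148 to 0.545), a log2 change of -4.54 ± 0.43 (adjusted p 1.06e-05). Acvr1c, a type I receptor for activin-class ligands, fell from a wt median of 3.20 CPM (1.52 to 12.6) to 0.360 (0.169 to 0.541), a log2 change of -3.83 ± 0.46 (adjusted p 8.74e-05). Lipn, a lipase described in skin, Tmem88b and Car3, a carbonic anhydrase abundant in muscle and fat, changed by -4.28, -3.86 and -3.29 on the log2 scale.

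The plot of the lowest genes shows the same separation in all 12, whatever the level in wt.

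**Figure D2:**
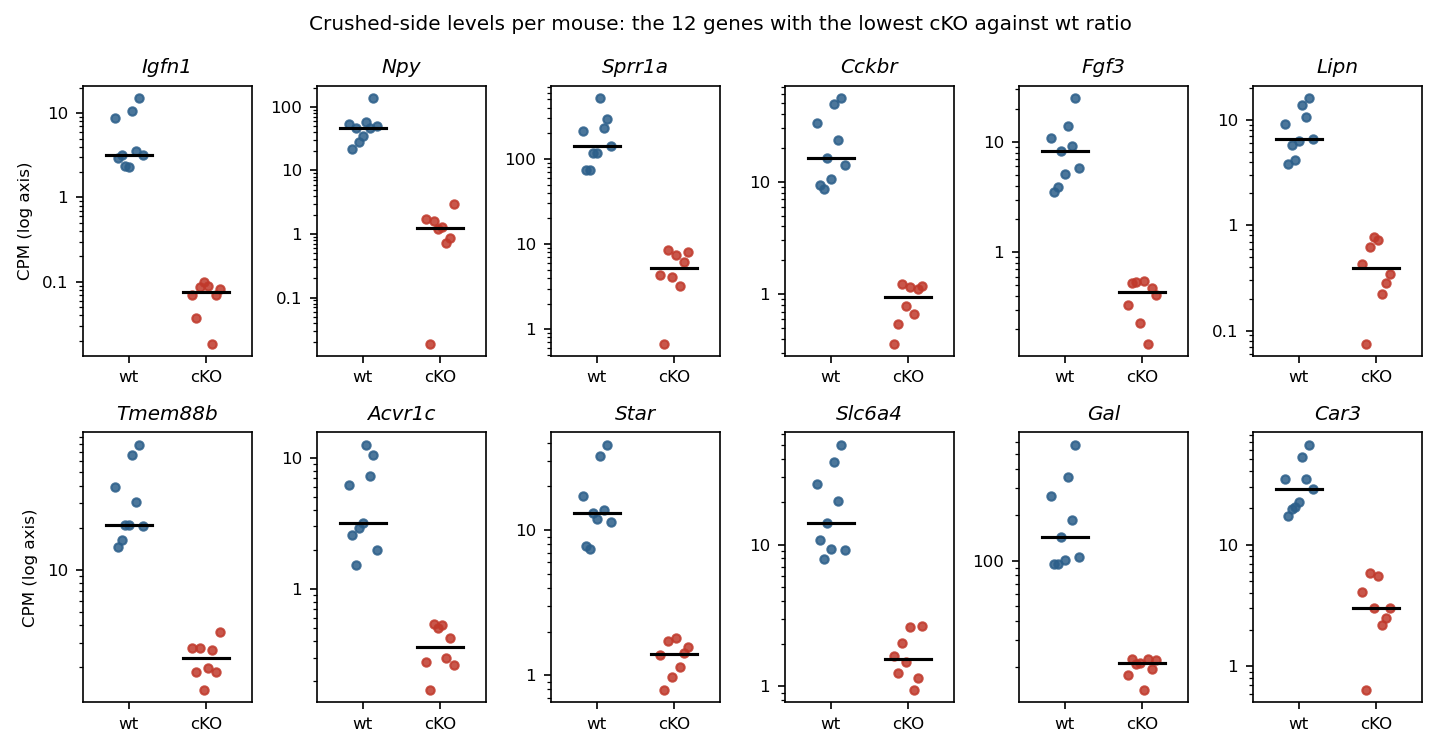
Crushed-side CPM on log axes for the 12 genes with the lowest ratio, 1 point per mouse (9 wt in blue, 8 cKO in red) and a black line at the group median. No red point reaches a blue one in any panel, and the red point far below the others for Npy, Sprr1a, Lipn and Car3 is mouse cKO-131.

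Below the 5 CPM floor, Anxa10 and Ankrd1 were as strongly reduced. They and Egfr, which was less reduced, are named after their values were seen. Anxa10, an annexin, had the smallest p of all genes, with 2.54 to 7.37 CPM in wt (median 3.52) and 0.0376 to 0.156 in cKO (median 0.0585), a log2 change of -5.70 ± 0.32 (adjusted p 2.84e-08). Ankrd1, an ankyrin-repeat protein first known from heart and skeletal muscle, had a wt median of 0.807 CPM (0.353 to 1.80) and a cKO median of 0.0338 (0 to 0.0615), a log2 change of -4.70 ± 0.47 (adjusted p 1.41e-05). Both groups stood apart for both genes. Egfr, the epidermal growth factor receptor, lay at 4.15 to 15.5 CPM in wt (median 5.53) and 0.965 to 2.61 in cKO (median 1.19), a log2 change of -2.44 ± 0.29 (adjusted p 8.27e-05).

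Of 38 regeneration-associated genes tested, 23 were lower in cKO (60.5%, against 4.19% of all genes tested), 1 was higher, Timp1, and 14 did not pass. Their median log2 fold change was -0.97, against 0.03 over all genes. This list, like the others used here, was written with earlier results of these data known, so its share is a description. Without cKO-131 and wt-150, 20 were lower and 1 higher, and 17 were called lower in every fit that left out a mouse. Vip and Lif, the remaining members, fell under the count filter.

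Gap43, the growth-associated protein of axon tips, lay at 194.6 to 715 CPM in wt (median 331) and 118 to 168 in cKO (median 149), with no overlap, a log2 change of -1.41 ± 0.21 (adjusted p 0.00054). Its cKO median stood beside an uncrushed-side median of 149 CPM in the same mice. Gpr151, an orphan receptor of injured sensory neurons, had 26.7 to 116 CPM in wt (median 41.1) and 3.72 to 10.3 in cKO (median 5.78), a log2 change of -3.15 ± 0.33 (adjusted p 2.48e-05). Chl1, an adhesion molecule of the L1 family, had 179 to 533 CPM in wt and 102 to 158 in cKO (log2 change -1.31, adjusted p 0.00095). For all 3 the groups were separate. Smaller changes, such as those of Basp1 (-0.49) and Stmn2 (-0.48), which act on actin and microtubules in growing axons, did not hold in every fit: the call for Basp1 ended without cKO-130, cKO-192 or wt-172, and that for Stmn2 without any of these or without cKO-156 or wt-139.

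Neuropeptides included several of the most reduced genes. Of 17 tested, 7 were lower (41.2%, against 4.19% of all genes), namely Npy, Crh, Nts, Gal, Grp, Adcyap1 and Ucn, and 1, Cck, was higher (5.88%, against 1.72%). All 8 calls held in every fit that left out a mouse. Nts, neurotensin, lay at 19.0 to 62.5 CPM in wt (median 34.5) and 4.50 to 11.8 in cKO (median 5.46), a log2 change of -2.54 ± 0.28 (adjusted p 3.96e-05). Adcyap1, which encodes PACAP, changed by less on the log2 scale (-1.06 ± 0.13, adjusted p 8.74e-05) at far higher levels, 178 to 369 CPM in wt (median 239) and 94.1 to 151 in cKO (median 123). Crh, Grp and Ucn were scarce, with wt medians of 1.20, 1.55 and 1.32 CPM, and were at or below 0.259 CPM in every cKO mouse. The 7 lower peptides showed no overlap between the groups, a separation found for 1.57% of all genes tested. Cck, also scarce, went the other way, at 0.357 to 1.20 CPM in cKO (median 0.8294) and 0.162 to 0.479 in wt (median 0.321), a log2 change of 1.51 ± 0.24 (adjusted p 0.0012), with overlapping ranges. Its receptor gene Cckbr was among the most reduced genes.

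Among growth factors, cytokines and chemokines, 9 of 28 tested were lower (32.1%, against 4.19% of all genes) and 2 higher (7.14%, against 1.72%). The number lower was 5 without wt-172, and the number higher was 4 without cKO-131. Csf1, the cytokine that injured sensory neurons send to microglia, had 73.5 to 315 CPM in wt (median 108) and 24.4 to 40.1 in cKO (median 30.2), a log2 change of -2.25 ± 0.28 (adjusted p 0.00012). Its cKO range was close to the uncrushed range of the same mice, 17.2 to 31.1 CPM. Inhbb, a subunit of activin B, had a wt median of 25.8 CPM (12.7 to 99.4) and a cKO median of 6.14 (3.40 to 7.40), a log2 change of -2.69 ± 0.40 (adjusted p 0.00057). Both cytokine genes were without overlap. The 2 higher genes were Ntf3 and Reg3b. Ntf3 encodes neurotrophin-3, the survival factor of proprioceptors, and stood at 0.564 to 1.64 CPM in cKO (median 1.13) and 0.0814 to 0.434 in wt (median 0.221), a log2 change of 2.41 ± 0.29 (adjusted p 8.74e-05). Reg3b, a secreted lectin induced in injured sensory neurons, had a cKO median of 0.872 CPM and a wt median of 0.129, with a log2 change of 2.87 ± 0.48 (adjusted p 0.0016). Its relative Reg3g, named after its values were seen, had 0.339 to 2.31 CPM in cKO (median 1.78) and 0.0642 to 0.321 in wt (median 0.183), a log2 change of 3.22 ± 0.39 (adjusted p 8.74e-05). The ranges of Ntf3 and Reg3g did not overlap, though all 3 genes were scarce in both groups.

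Of 28 proteases and inhibitors, 6 were lower (21.4%, against 4.19% of all genes) and 1, Timp1, was higher (3.57%, against 1.72%). The group's median log2 change was 0.005, with 15 members at a positive sign. The higher count was 2 without cKO-131 and 2 without wt-195. Plau, the urokinase that activates plasminogen, had 10.0 to 15.3 CPM in wt (median 11.7) and 6.34 to 9.47 in cKO (median 7.22), without overlap, a log2 change of -0.62 ± 0.12 (adjusted p 0.0039). Mmp16, a membrane metalloprotease, and Ecel1, an endothelin-converting enzyme relative known as a nerve-injury gene, changed by -1.996 and -2.809.

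Of 43 axon guidance genes, 8 were lower (18.6%, against 4.19% of all genes) and 1 was higher (2.33%, near the 1.72% of all genes). Sema6a, a transmembrane semaphorin, had a wt median of 223 CPM (149 to 683) and a cKO median of 81.5 (71.0 to 127), a log2 change of -1.76 ± 0.29 (adjusted p 0.0016). Sema4f, another semaphorin, lay at 190 to 438 CPM in wt and 119 to 148 in cKO (log2 change -0.90 ± 0.14, adjusted p 0.00067). Neither overlapped. The single higher member was Slit2, a repellent ligand of Robo receptors, with a log2 change of 0.47 ± 0.11 (adjusted p 0.019) and overlapping ranges of 15.0 to 35.0 CPM in cKO and 16.6 to 22.0 in wt.

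Few of the partners and fellow transcription factors of ATF3 passed the test. Among 22 injury-induced transcription factors 3 were lower (Lmo7, Klf6 and Sox11; 13.6%, against 4.19% of all genes) and none was higher, and among 16 AP-1 family genes 1 was lower, the scarce Batf3 (log2 change -1.62, adjusted p 0.0064), with 2 lower when cKO-194 was left out. Lmo7, a LIM-domain protein that shuttles between membrane and nucleus, had 54.6 to 265 CPM in wt (median 79.1) and 18.3 to 27.2 in cKO (median 20.5), a log2 change of -2.51 ± 0.32 (adjusted p 0.00012), with no overlap. Sox11, which supports axon growth, had overlapping ranges of 92.5 to 361 CPM in wt and 50.6 to 130 in cKO, and its change of -1.24 ± 0.31 (adjusted p 0.023) was not called without cKO-130, cKO-192 or wt-172. Jun, the dimer partner of ATF3, lay at 363 to 589 CPM in cKO and 333 to 810 in wt, with a median of 450 CPM in both groups. Its log2 change was 0.00 ± 0.15 (adjusted p 0.99), with either sign depending on the mice and settings used. Neither Stat3 (-0.09 ± 0.06, adjusted p 0.40), Smad1 (-0.37 ± 0.14, adjusted p 0.13) nor Klf7 (-0.23 ± 0.08, adjusted p 0.12) passed, all being transcription factors of the growth response. Those 4 all had overlapping ranges.

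Of 22 tubulins and neurofilament genes, structural parts of the axon, 7 were lower (31.8%, against 4.19% of all genes tested) and none was higher. The group's median log2 change was -0.09, and 8 members had a positive sign. The count was 4 without any one of cKO-130, cKO-131, cKO-156, cKO-163, cKO-192, cKO-193, wt-139 or wt-172, and the same 4 members were called in every fit that left out a mouse, namely Tubb6, Tubb2a, Tubb2b and Ina. Tubb6, a tubulin isotype induced by axon injury, had 41.0 to 187 CPM in wt (median 63.2) and 9.10 to 29.9 in cKO (median 19.2), a log2 change of -2.11 ± 0.30 (adjusted p 0.00042). Tubb2a lay at 593 to 1167 CPM in wt and 475 to 585 in cKO, with a log2 change of -0.62 ± 0.11 (adjusted p 0.0019). Tubulin genes are near-identical copies, so reads may have been divided between them. Both of these genes were without overlap.

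Among 30 genes of neuronal injury and death, 4 were lower (13.3%, against 4.19% of all genes) and none was higher. Gadd45a, a stress-induced regulator of growth and DNA repair, had 45.2 to 217 CPM in wt (median 79.1) and 25.3 to 42.9 in cKO (median 31.3), a log2 change of -1.63 ± 0.27 (adjusted p 0.0014). Cdkn1a, which encodes the cell-cycle inhibitor p21, changed by -1.30 ± 0.24 (adjusted p 0.0036). Neither gene overlapped between the groups. Pmaip1, a pro-death BH3 protein, changed by -1.20, and Tnfrsf12a, the TWEAK receptor, by -1.02, the last call ending when wt-139, wt-172 or any cKO mouse but cKO-194 was left out. In the integrated stress response, 1 of 32 genes was called, as higher (3.13%, near the 1.72% of all genes). It was Ddit4, an inhibitor of mTOR signalling (log2 change 0.36 ± 0.09, adjusted p 0.018). Without wt-176 there were 2 higher genes, and without wt-141 there was 1 lower. Atf4, the main transcription factor of that response, stood at -0.35 ± 0.11 (adjusted p 0.070).

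The cholesterol synthesis genes that passed were all lower. Of 27, 7 were lower (25.9%, against 4.19% of all genes), none was higher, and the median log2 change of the group was -0.16. Hsd17b7, an enzyme of sterol and sex steroid synthesis, moved most, with 111 to 323 CPM in wt (median 169) and 44.6 to 81.8 in cKO (median 58.3), a log2 change of -1.58 ± 0.21 (adjusted p 0.00016). Mvd and Sqle, which act in the mevalonate and squalene steps, changed by -0.62 ± 0.09 (adjusted p 0.00052) and -0.35 ± 0.07 (adjusted p 0.0047). These 3 genes did not overlap between the groups. Insig1 and Hmgcs1 were also called but not in every fit, the first ending in 7 and the second in 14 of the 17 fits that left out a mouse, wt-172 and wt-139 among them for both.

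Without cKO-131 and wt-150, the mice with an Avil level apart from their label, the lower members numbered 7 neuropeptides, 7 growth factors and cytokines, 5 proteases and inhibitors, 8 axon guidance genes, 4 tubulins and neurofilaments, and 5 cholesterol synthesis genes. The plot of list shares shows where all 33 lists stood with every mouse included.

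**Figure D3:**
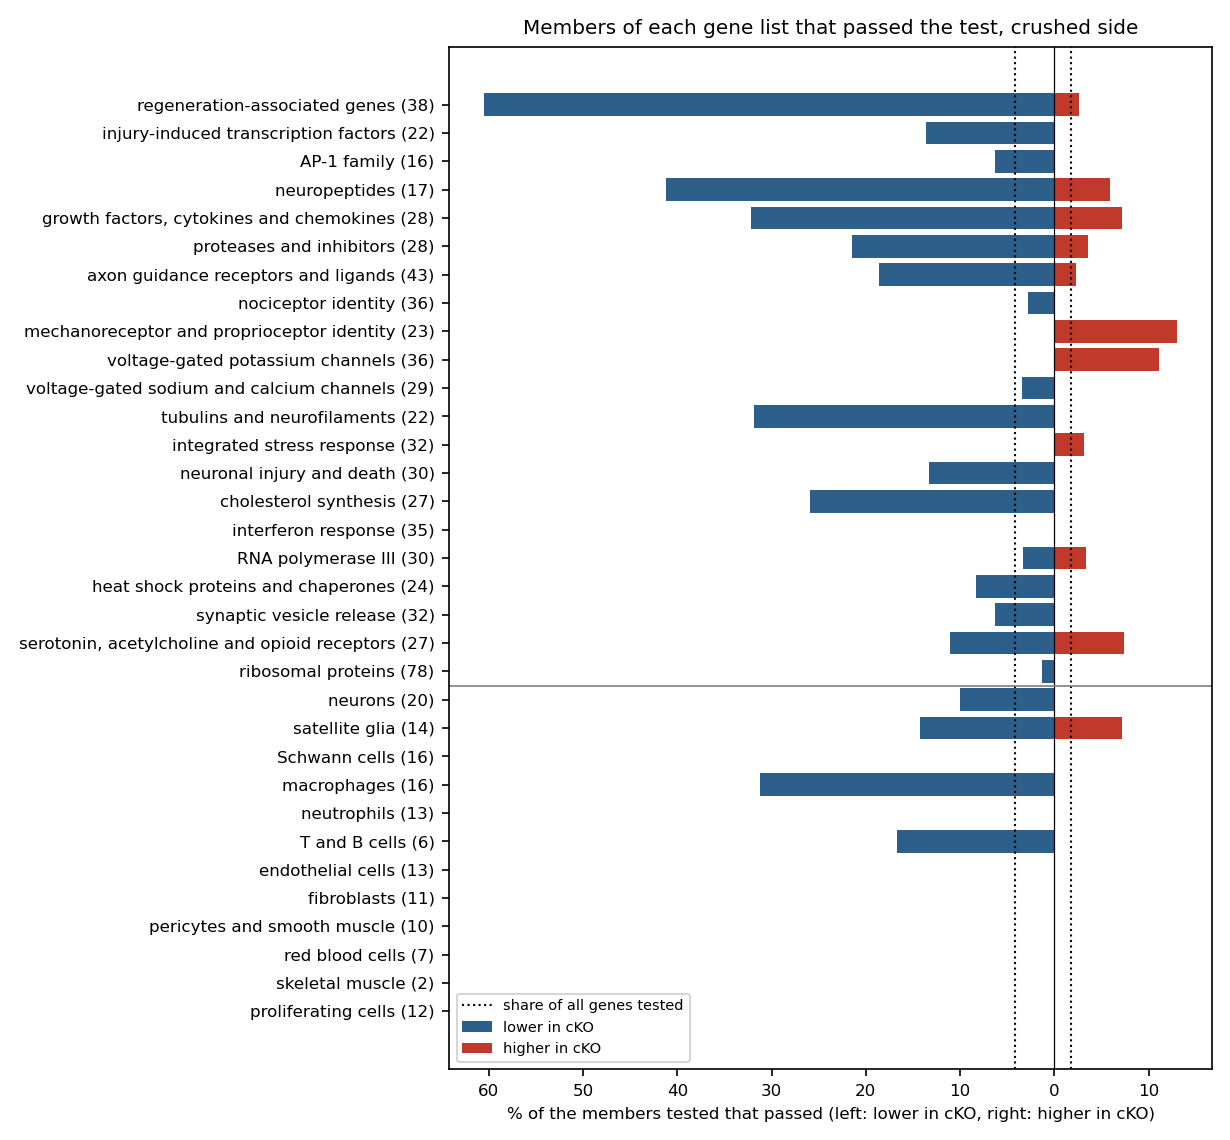
Percent of the tested members of each gene list (number in brackets) that passed as lower (blue, left) or higher (red, right) in cKO, pathway lists above the grey line and cell type markers below it; dotted lines mark the share of all genes tested (4.19% lower, 1.72% higher). Regeneration-associated genes (60.5%) and neuropeptides (41.2%) reach furthest left, and mechanoreceptor identity (13.0%) and potassium channels (11.1%) furthest right.

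Higher genes were fewer and changed less. The 12 with the highest ratio and a mean of at least 5 CPM in cKO were Chodl, Kcng4, Pcdh18, Racgap1, Mrvi1, Tgtp2, Mme, Timp1, Gprc5c, Hoxb9, Glb1l2 and Wnt16, at 1.87-fold to 3.33-fold higher. The groups were separate in 4 of the 12 with all mice and in 8 of the 12 without cKO-131. That mouse had the lowest cKO level in 10 of these 12 genes and lay within the wt range in 7. Across the 12 genes it averaged 0.29 log2 units above the wt mean, while the other cKO mice averaged 0.92 to 1.41 above it. Averaged over the 12 lowest genes the same mouse was the most reduced, at -4.08 against -3.12 to -3.70 in the others, although it had the lowest cKO level in only 6 of them and the highest one for Gal.

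Kcng4, a silent subunit that modifies Kv2 potassium channels, lay at 8.95 to 30.6 CPM in cKO (median 25.0) and 6.10 to 8.69 in wt (median 7.75), a log2 change of 1.58 ± 0.19 (adjusted p 8.27e-05). The lowest cKO level was that of cKO-131, and without it the cKO range began at 16.6 CPM and the change was 1.71 ± 0.12 (adjusted p 2.22e-06). Gprc5c, an orphan receptor, ranged over 35.6 to 60.5 CPM in cKO (median 55.8) and 20.6 to 32.4 in wt (median 28.7), a log2 change of 0.95 ± 0.11 (adjusted p 6.63e-05), without overlap. Pcdh18, a protocadherin, stood at 11.1 to 43.7 CPM in cKO (median 27.5) and 10.1 to 14.0 in wt (median 10.9), a log2 change of 1.25 ± 0.17 (adjusted p 0.00032). It overlapped the wt range through cKO-131 alone, the other cKO mice starting at 20.6 CPM. Racgap1, a GTPase-activating protein best known from cell division, lay at 11.9 to 34.8 CPM in cKO (median 25.7) and 9.09 to 12.0 in wt (median 11.5), a log2 change of 1.21 ± 0.17 (adjusted p 0.00033), with the same single mouse inside the wt range. Mrvi1, a regulator of calcium release, changed by 1.19 ± 0.15 (adjusted p 0.00010) with no overlap.

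In Chodl, Tgtp2, Mme and Hoxb9 the groups overlapped also without that mouse. Chodl, a membrane lectin found in fast motor neurons, had 3.69 to 9.77 CPM in cKO (median 5.71) and 0.321 to 4.68 in wt (median 1.75), a log2 change of 1.74 ± 0.34 (adjusted p 0.0054). Tgtp2, an interferon-inducible GTPase with a near-identical neighbour that may share its reads, changed by 1.16 ± 0.29 (adjusted p 0.023) and was not called without cKO-192 or without wt-172. Mme, the peptide-degrading enzyme neprilysin, and Hoxb9, a homeobox factor of body position, changed by 0.97 and 0.93. Timp1, an inhibitor of metalloproteases that nerve injury induces, was higher in cKO at 2.37 to 8.55 CPM (median 6.72) than in wt at 1.77 to 4.92 (median 3.34), with a log2 change of 0.95 ± 0.20 (adjusted p 0.0078). It was the only regeneration-associated gene called higher. Wnt16, a secreted Wnt ligand, and Glb1l2, a relative of lysosomal galactosidase, were at 0.90 each. The groups were separate in Timp1 and Wnt16 once cKO-131 was left out, and in Glb1l2 with all mice.

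**Figure D4:**
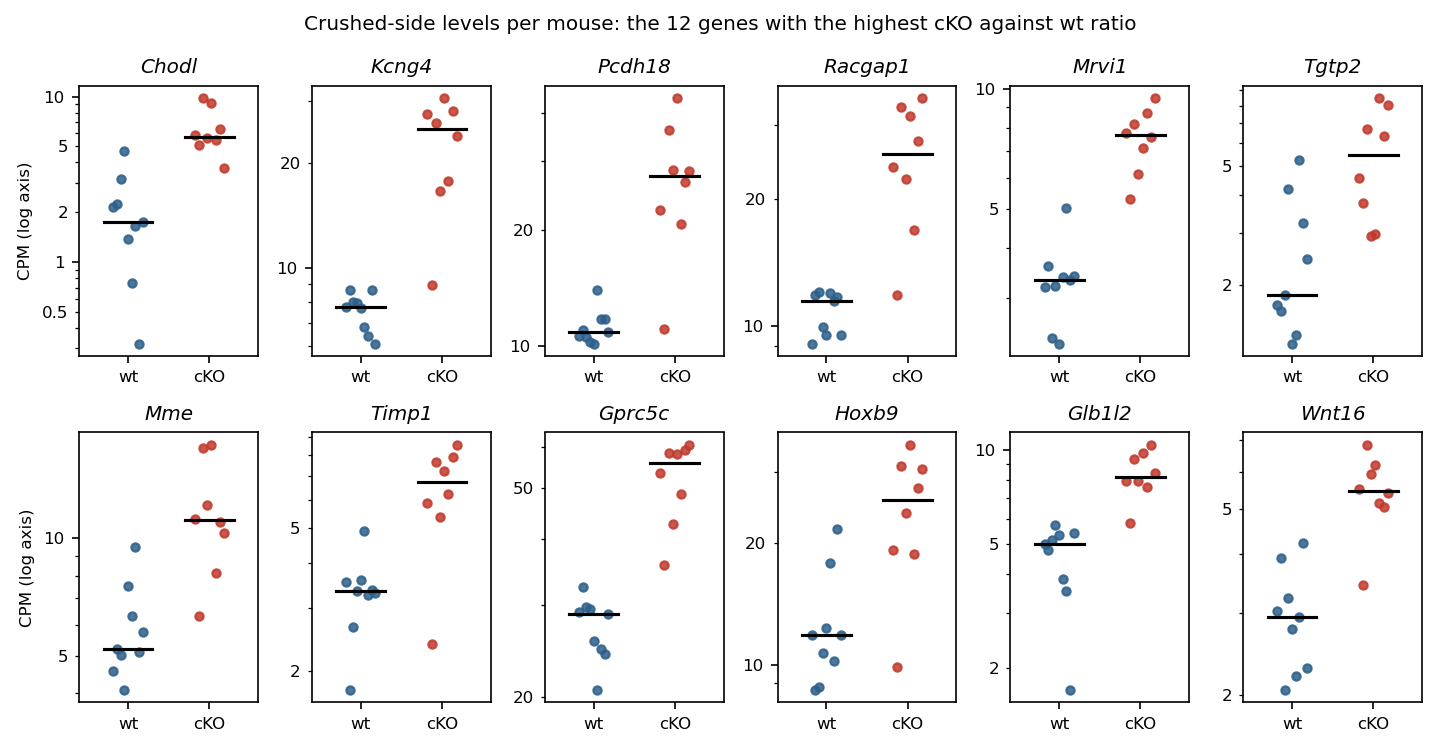
Crushed-side CPM on log axes for the 12 genes with the highest ratio, 1 point per mouse (9 wt in blue, 8 cKO in red) and a black line at the group median. The isolated low red point in Kcng4, Pcdh18, Racgap1, Timp1, Hoxb9 and Wnt16 is mouse cKO-131, and the groups are separate in Kcng4, Mrvi1, Gprc5c and Glb1l2.

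Few genes of neuronal identity and excitability passed. Of 36 voltage-gated potassium channel genes, 4 were higher (11.1%, against 1.72% of all genes) and none was lower. The higher ones included Kcng4, Kcnh5 and Kcnip1. Kcnh5, an ether-a-go-go channel, had overlapping ranges of 12.7 to 27.0 CPM in cKO (median 23.9) and 12.0 to 17.8 in wt (median 13.4), a log2 change of 0.73 ± 0.12 (adjusted p 0.0017). Kcna2, the channel beside the node of Ranvier, did not pass (0.47 ± 0.15, adjusted p 0.076). Of 36 members, 31 had a positive log2 change, against 10409 of all 18809 genes, and the group's median was 0.18. Without cKO-131 and wt-150, 4 potassium channel genes were higher.

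Of 23 mechanoreceptor and proprioceptor identity genes, 3 were higher (13.0%, against 1.72% of all genes) and none was lower. That count was 6 without cKO-131 and 1 without any one of cKO-163, cKO-192, cKO-193, wt-172 or wt-195. Whrn, the scaffold protein whirlin, was the member called in every fit, at 14.5 to 28.3 CPM in cKO (median 20.9) and 11.4 to 16.8 in wt (median 13.5), a log2 change of 0.67 ± 0.13 (adjusted p 0.0045), with overlapping ranges. Among 36 nociceptor identity genes 1 was lower (2.78%, no more than the 4.19% of all genes) and none higher. With 3 lower without cKO-131, 2 lower without wt-175 and 1 higher without wt-176, this count too was small under each of the omissions. Ret, the receptor tyrosine kinase for GDNF-family ligands, was that member, at 1182 to 1768 CPM in wt (median 1283) and 912 to 1145 in cKO (median 1009), with no overlap, a log2 change of -0.39 ± 0.08 (adjusted p 0.0074). Scn10a, the pain-fibre sodium channel (0.23 ± 0.16, adjusted p 0.49), did not pass. Unlike Ret, 27 of the 36 nociceptor genes had a positive log2 change (list median 0.15). So had 22 of the 23 mechanoreceptor and proprioceptor genes (list median 0.21), against 10409 of all 18809 genes.

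The remaining pathway lists held few calls, where 4.19% of all genes were lower and 1.72% higher. Of 29 sodium and calcium channel genes 1 was lower, Cacna2d1, the gabapentin-binding subunit (log2 change -0.90 ± 0.20, adjusted p 0.012), and without cKO-131 there were 2 higher ones. Of 27 receptor and transporter genes for serotonin, acetylcholine and opioids, 3 were lower (Slc6a4, Chrm3 and Chrna5) and 2 higher (Oprl1 and Oprd1), the latter pair falling to 0 without cKO-130 or wt-172 and to 1 without any one of cKO-152, cKO-156, cKO-163, cKO-193, wt-139, wt-150, wt-175 or wt-195. Among 35 interferon-response genes none was called, although 32 had a positive sign, against 10409 of all 18809 genes. Their median was 0.22, and without wt-155 there was 1 higher. Of 30 RNA polymerase III genes 1 was higher (Snapc5, 0.43 ± 0.08, adjusted p 0.0030) and 1 was lower, the second not without wt-172. Heat shock genes (2 lower of 24) and synaptic vesicle genes (2 lower of 32) had calls that mostly ended in fits without single mice. No heat shock call was left without any one of cKO-130, cKO-156, cKO-163, cKO-192, wt-139, wt-150 or wt-172, and 1 was left without any one of cKO-131, cKO-152, cKO-193 or wt-146. Of the synaptic vesicle genes, 1 was called lower in each omission but those of cKO-131, cKO-193 and wt-141, and 1 was higher without cKO-131. Among 78 ribosomal protein genes 1 was lower, Rpl24, and not without wt-172.

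No gene passed between the genotypes on the uncrushed side. Of 18151 tested there, 0 passed in edgeR, 628 had an unadjusted p under 0.05, and DESeq2 called 3. Of the 1112 crushed-side calls, 997 were tested on the uncrushed side and 24 of these had an unadjusted p under 0.05 there. The genotype difference itself differed between the sides for 556 of 19565 genes (2.84%), and for 1474 (7.53%) when both libraries of a mouse were treated as a pair. Without wt-172 the unpaired number was 339. Among these, in the same direction as on the crushed side, were 410 of the 788 lower and 122 of the 324 higher genes, or 582 and 251 with the pairing.

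Gal, for example, stood at 11.2 to 42.7 CPM (median 21.8) in uncrushed wt and 10.5 to 32.4 (median 15.1) in uncrushed cKO, so that crushed cKO ganglia at 14.1 to 22.5 remained within the uncrushed range of both genotypes. The difference between the sides was -3.06 ± 0.45 on the log2 scale without pairing (adjusted p 9.77e-05). With both libraries of a mouse as a pair it was -2.73 ± 0.45 (adjusted p 0.0018). Csf1 had uncrushed medians of 26.0 CPM in wt and 26.8 in cKO. Its difference between sides was -2.24 ± 0.30 without pairing (adjusted p 1.94e-05) and -2.05 ± 0.30 with it (adjusted p 0.00079). Of the 288 genes at least 2-fold lower, 272 had a wt mean at least 2 times as high on the crushed as on the uncrushed side, with 0.1 CPM added to each mean. In cKO this held for 47, and for 197 the crushed mean was within 1.5 times of the uncrushed one. These counts are descriptive, since the genes were chosen for being low in crushed cKO or high in crushed wt.

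Higher genes took different paths to their genotype difference. Of the 324, 260 had a lower mean on the crushed than on the uncrushed side in wt, 242 had a higher one in cKO, and 178 had both. Over all 18809 genes the crushed mean was the higher one for 10044 in wt and 10121 in cKO. These counts too are descriptive, since the genes were chosen for being high in crushed cKO or low in crushed wt. Gprc5c shows both, with uncrushed medians of 34.6 CPM in wt and 32.9 in cKO between the crushed medians of 28.7 and 55.8. Its difference between the sides was 1.00 ± 0.13 without pairing (adjusted p 1.33e-05) and 0.99 ± 0.12 with it (adjusted p 0.00015). Glb1l2 had lower medians on the crushed side in both genotypes, at 5.01 CPM in wt and 8.21 in cKO, against 9.88 and 9.21 on the uncrushed side. Pcdh18 rested at 8.35 CPM in wt and 9.67 in cKO on the uncrushed side. In crushed ganglia its median was 10.9 in wt and 27.5 in cKO. The difference between the sides was 1.23 ± 0.22 without pairing (adjusted p 0.00097) and 1.16 ± 0.15 with it (adjusted p 0.00028).

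For a few genes nearly silent without a crush the difference between the sides was estimated with little precision. Sprr1a had 2 counts and Npy 4 counts in total over the 8 uncrushed cKO libraries, against 88 and 137 over the 9 uncrushed wt libraries. Uncrushed Sprr1a lay at 0.0395 to 0.368 CPM in wt and 0 to 0.0193 in cKO, without overlap. Both genes fell under the count filter on the uncrushed side, so a genotype difference there was not tested. Their estimates of the difference between the sides had SEs of 8.08 and 4.81 log2 units, or 1.97 and 6.15 with both libraries of a mouse as a pair. Other scarce genes gave a usable estimate. Igfn1, with 31 uncrushed counts in cKO and 32 in wt, differed between the sides by -6.28 ± 0.76 (adjusted p 6.1e-06), and Crh, with 13 and 16 counts, by -5.55 ± 1.07 (adjusted p 0.0021). With the pairing these were -6.06 ± 0.72 (adjusted p 0.00015) and -5.37 ± 1.03 (adjusted p 0.0043).

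**Figure D5:**
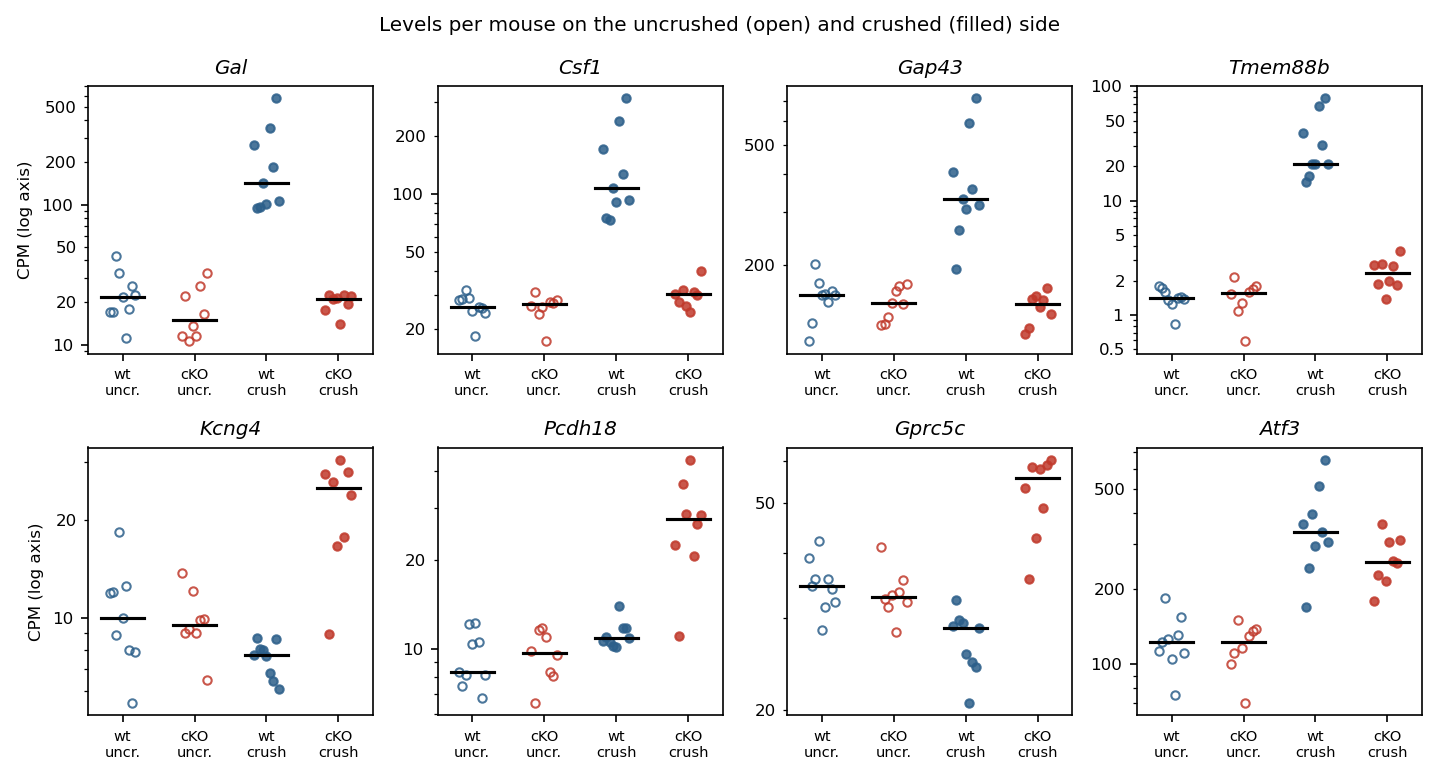
CPM on log axes for 8 genes, 1 point per mouse, on the uncrushed side (open) and the crushed side (filled) in wt (blue, 9 mice) and cKO (red, 8 mice), with black lines at the medians. For Gal, Csf1 and Gap43 the crushed cKO points lie at the level of the open points, for Pcdh18 and Gprc5c they lie above them with the exception of cKO-131, for Kcng4 most lie above them while the highest open wt point (18.3 CPM) exceeds the lowest crushed cKO points, and Atf3 counts overlap between the genotypes.

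Wt mice varied in how strongly they expressed the lower genes. On the average over the 12 lowest genes, wt-176 and wt-172 stood 1.38 and 1.06 log2 units above the wt mean, and wt-141 and wt-146 stood at -0.88 and -0.80. The 8 cKO mice lay between -3.12 and -4.08. Within sex and within each spacer set, all 24 genes named as lowest or highest kept their sign. These genes were chosen from the same mice. The groups did not overlap in the 12 lowest and in 4 of the 12 highest, so there the sign could hardly change. In females, where the 5 cKO mice carried Cre and the 6 controls did not, 17 of the 24 passed. In males, where all 6 mice carried Cre, 0 of the 24 passed and 0 genes did in all, with 1304 of 18913 at an unadjusted p under 0.05. The male fit held only 3 mice of each genotype, and its log2 changes were of a size like those in females. In males and females they were -5.29 and -5.18 for Sprr1a, -4.73 and -5.74 for Npy, and -3.26 and -3.43 for Gal. For Kcng4 they were 1.8 and 1.47, and for Timp1 0.852 and 1.03. In the low and high spacer sets 15 and 17 of the 24 passed.

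Markers of other cells gave a mixed picture of what the neuron-enriched pellets held. Summed neuronal markers lay at 12515 to 18735 CPM in cKO (median 16521) and 15735 to 22894 in wt (median 17604), the lowest being cKO-131. The sum includes Avil, with means of 418 CPM in cKO and 721 in wt, which followed the Cre label in most mice. It also includes Stmn2, with means of 1177 and 1643, so it is not a count of neurons. Of the neuronal markers 2 of 20 passed as lower (10.0%, against 4.19% of all genes). They were Slc17a6, the vesicular glutamate transporter, and Stmn2, the second not without cKO-130, cKO-156, cKO-192, wt-139 or wt-172. Of 16 macrophage markers 5 were lower (31.25%, against 4.19% of all genes) and none was higher, while 5 of those that did not pass, Lyz2, Tyrobp, Fcer1g, Itgam and Ptprc, had a positive log2 change. Of the lower ones 4, the complement genes C1qa, C1qb and C1qc and the fractalkine receptor Cx3cr1, were called in every fit that left out a mouse. C1qa had 2.09 to 6.76 CPM in wt (median 4.25) and 0.811 to 4.16 in cKO (median 1.22), overlapping, with a log2 change of -1.38 ± 0.30 (adjusted p 0.0090). In bulk RNA fewer cells of a type and less RNA per cell cannot be told apart. The summed macrophage markers ranged over 37.7 to 213 CPM in cKO and 41.1 to 159 in wt, and the part of these cells in other results was not tested.

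Satellite glia, the cells that wrap each neuron, had 1 higher marker of 14, Aldoc (7.14%, against 1.72% of all genes). Glul and Hmgcs1, the second also a member of the cholesterol synthesis list, were 2 lower ones (14.3%, against 4.19%). The other 12 markers had a positive log2 change, and the median of the list was 0.26. The lower pair was absent without any one of cKO-130, cKO-131, cKO-156, cKO-163, cKO-193, wt-139 or wt-172. Schwann cell (16), endothelial (13), fibroblast (11), pericyte (10), neutrophil (13), red blood cell (7) and proliferation (12) markers had no calls. A positive log2 change was found for 12 of 13 neutrophil, 7 of 7 red cell and 12 of 12 proliferation markers, against 10409 of all 18809 genes. Their medians were 0.83, 1.06 and 0.66, against 0.03 for all genes. Each of these marker sums was highest in cKO-194 among the cKO mice. A positive sign was also found for 12 of 13 endothelial markers (median 0.27) and 8 of 10 pericyte markers (median 0.35). For Schwann cells it was found for 12 of 16 (median 0.18), and for fibroblasts for 6 of 11 (median 0.13). Neutrophil markers summed to 145.8 to 1143 CPM in cKO (median 206) and 41.4 to 726 in wt (median 102), highest in cKO-194 and wt-146 and lowest in cKO-193 and wt-172. The marker S100a8 had a log2 change of 0.97 ± 0.55 (adjusted p 0.36), and Mki67, a marker of dividing cells, 0.83 ± 0.36 (adjusted p 0.22). Proliferation markers were called in 1 gene without cKO-193 and in 1 without wt-146. Among 6 lymphocyte markers tested 1 was lower (16.7%, against 4.19% of all genes), Trbc2, a constant segment of the T cell receptor. Without any one of 8 wt mice (all but wt-141) this scarce gene fell under the count filter and was not tested, and in the other 9 fits it was called each time, with an adjusted p of at most 0.0072. No marker was at 0 in all libraries, and the part of these cells in the genotype differences was not tested.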

How the data were processed

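The authors deposited raw counts per gene for 34 libraries from 17 mice, 1 crushed and 1 uncrushed side each. Per the submitters' processing notes, bcl2fastq 2.20, STAR, HTSeq and GRCm38 were used. The annotation and strand setting of the counting are not stated in the sources used here, so overlapping genes and near-identical copies are uncertain. Symbols from GENCODE on GRCm38 matched 48349 of 48795 gene IDs.

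For the crushed side, edgeR 4.0.16 (R 4.3.3) was run on 17 libraries with TMM factors, filterByExpr by genotype, sex as a covariate and a robust quasi-likelihood F-test. It kept 18809 genes with 99.947% of the counts. P-values were adjusted by Benjamini-Hochberg over all genes tested (threshold 0.05). An SE is the size of the log2 fold change divided by the square root of F. Printed levels are CPM with TMM factors of all 34 libraries. The uncrushed side was fitted alike, and the difference between sides in 1 model of 4 groups and 34 libraries, without pairing. The mouse pairs its own sides: their deviations from the group means correlated above 0.1 in 17 of 17 mice (median r 0.655, lowest 0.289). Alternatives were DESeq2 1.42.0, other scaling, filters and covariates, subsets of mice and leaving out each mouse. Within groups no libraries agreed within sampling noise. The models were tested on simulated data.

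Named genes were the 12 lowest and 12 highest log2 fold changes among called genes with a mean of at least 5 CPM in the higher group and no predicted name, Atf3, Avil, and members of 33 gene lists. The comparison and the lists were chosen with earlier results of these data known. P-values measure the spread between mice. Some genes are not reported here by name.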

Additional observations from a re-analysis of the deposited data

Results flagged for a closer look

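In the groups of 8 or 9 mice, a single crushed library lay apart from its group for 6 named genes. The rule was applied in both genotypes to the 12 lowest and 12 highest genes, Atf3 and Avil. Chance alone meets it in about 1 in 20 groups if levels follow a normal curve. Some wt levels were skewed upward, as for Sprr1a (median 142 CPM, highest 515), so that rate need not hold here. Npy was at 136.9 CPM in wt-176, Sprr1a at 514.8 CPM in wt-172 and Fgf3 at 24.87 CPM in wt-176, each above all other wt mice. Pcdh18 was at 13.99 CPM in wt-172 and Mrvi1 at 5.042 CPM in wt-175, also the highest of their group. Avil was at 88.74 CPM in cKO-131, the lowest of its group.

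The genotype difference was tested against that of the uncrushed side, in edgeR over all 34 libraries without pairing the sides of a mouse, and differed for 556 genes. Among the named ones the crushed-side difference was lower than the uncrushed one by -6.275 log2 units for Igfn1, -4.105 for Slc6a4, -4.047 for Fgf3, -3.907 for Tmem88b, -3.61 for Acvr1c, -3.137 for Star, -3.058 for Gal and -2.967 for Car3. It was higher by 1.823 for Chodl, 1.664 for Kcng4, 1.231 for Pcdh18, 1.137 for Racgap1, 1.052 for Mrvi1, 0.9999 for Gprc5c and 0.9375 for Wnt16.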

How the results depend on the processing

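The number of called genes (1112; 788 lower, 324 higher) was 2175 (1477 lower, 698 higher) with all 34 libraries in 1 model and 1787 (1261 lower, 526 higher) in DESeq2. In females 171 were lower and 24 higher, in males 0 and 0, in the low spacer set 40 and 28, and in the high set 105 and 17. Fewer samples enter these subsets; the cause of the other shifts was not tested. The higher genes numbered 507 with the spacer share as a covariate and 518 with the share of 3 ribosomal transcripts, and no filter on low counts gave 1009 lower and 219 higher. Leaving out single mice gave 612 to 1304 genes, 427 to 923 lower and 185 to 419 higher, with the lowest of each without wt-172. The planned split by spacer share put all 17 mice under 12% (highest 11.3%), so the spacer sets and the share used here, with another ribosomal transcript, were chosen after seeing the data. On the uncrushed side DESeq2 called 3 genes, no filter 1 and females 2. The count of genes whose difference differed between sides (556) was 1474 with the mouse as a replicate block, which is the paired fit, 879 and 936 with the shares as covariates, 67 in females, 0 in males, 3 and 48 in the low and high sets, and 339 to 717 without single mice, the lowest without wt-172. Median-ratio scaling, no sex covariate and leaving out cKO-131 with wt-150 kept each total within 1.5 times. Jun changed sign, at -0.0546 in females, -0.0316 in the low set, -0.00978 with no filter, -0.0045 with no sex covariate and -0.0695 to 0.14 without single mice; no other named gene did. Genes under about 1 CPM rest on few counts, and their folds are imprecise.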
